A study of Mus musculus with 10 samples.

Results

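The tripartite motif (TRIM) genes encode a large family of proteins, most of which transfer ubiquitin to other proteins through a RING finger, followed by B-box zinc fingers and a coiled coil. Their levels were examined in cultured microglia, the macrophages that reside in the brain, from mice. A gene was taken as a member when its row carried a single symbol made of Trim, a number and at most one letter, and for a symbol with several rows the brightest row was kept. This gave 51 TRIM genes among 18976 genes with a row of their own. A further 6 rows joined a Trim symbol with other symbols and are described apart.

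Microglia were shaken off mixed glial cultures of newborn wild-type C57BL/6 mice, kept without serum, and hybridised to Affymetrix whole transcript arrays. Per the labels, 5 arrays came from cells given recombinant human TGFb1 at 5 ng/ml for 24 h and 5 from cells given no factor for 24 h. The values of single arrays stood under names that match no sample label, so they were assigned to neither condition and used in no step. A difference between TGFb1-treated and untreated microglia was therefore not analysed here for any TRIM gene. The one value used per gene is the authors' median expression over arrays, a linear fluorescence intensity without SD or n. Over which arrays it was taken is not stated. If it pools both conditions, the value of a gene that differs between them can lie between their levels and describe neither. In bulk RNA, fewer cells of a type and less RNA per cell cannot be told apart.

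TRIM proteins act at several points of innate immunity. Trim25 ubiquitinates the RNA sensor RIG-I, Trim30a restrains Toll-like receptor signalling in mouse macrophages, and several members are themselves induced by interferon. Others are nuclear co-regulators, among them Trim33, which can bind activated Smad2 and Smad3 and can ubiquitinate Smad4, the mediators of TGFb signalling. Still others are best known from muscle, neurons, testis or gut epithelium.

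The label of the cells was checked against fixed marker genes. The microglia markers Trem2 and Csf1r had intensities of 1956 and 1721, against 15.8 for the median gene. Cx3cr1 and Itgam were at 819 and 788. Tmem119, Aif1 and P2ry12 were lower, at 94.1, 72.2 and 40.4, and also above the median gene. Of 4 markers of border macrophages, Mrc1 had an intensity of 156 and the other 3 lay between 5.84 and 20.2. The 5 astrocyte markers lay between 4.67 and 28.6, the 7 markers of the oligodendrocyte lineage between 6.46 and 58.0, and the 4 fibroblast markers between 2.36 and 18.8. The 2 neuronal and 3 endothelial markers with a row lay between 4.90 and 10.5. Some markers of other cells were also above the median gene, namely Mrc1, Cbr2, Aldh1l1, Cspg4, Mbp and Col1a1. Of these, Mrc1, Cspg4 (58.0) and Mbp (56.7) were brighter than the microglia marker P2ry12. The part that such other cells had in the TRIM levels was not tested.

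The sequences around the transcription start of 4 TRIM genes are shown first. They belong to the brightest member, to its relatives in the same run of genes and to the second brightest member. They come from RefSeq on GRCm38.p6, run from 250 bases before to 50 bases after a start, and are written 5′ to 3′ on the strand of the gene. Capitals mark matches to GAAANNGAA on either strand, the letters shared by sites for interferon regulatory factors. Trim30a, the current name of the row labelled Trim30, lies at chr7:104465144-104465443 (minus strand), the further upstream of its 2 windows. Trim34a, the current name of the row labelled Trim34, lies at chr7:104244207-104244506 (plus strand), Trim6 at chr7:104218545-104218844 (plus strand) and Trim25 at chr11:88999153-88999452 (plus strand).
Trim30a: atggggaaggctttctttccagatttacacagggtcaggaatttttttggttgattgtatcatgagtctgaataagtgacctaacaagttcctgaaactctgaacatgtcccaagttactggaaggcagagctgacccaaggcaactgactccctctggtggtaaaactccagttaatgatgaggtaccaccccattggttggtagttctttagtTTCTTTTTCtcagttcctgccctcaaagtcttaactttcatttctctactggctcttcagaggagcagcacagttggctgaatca
Trim34a: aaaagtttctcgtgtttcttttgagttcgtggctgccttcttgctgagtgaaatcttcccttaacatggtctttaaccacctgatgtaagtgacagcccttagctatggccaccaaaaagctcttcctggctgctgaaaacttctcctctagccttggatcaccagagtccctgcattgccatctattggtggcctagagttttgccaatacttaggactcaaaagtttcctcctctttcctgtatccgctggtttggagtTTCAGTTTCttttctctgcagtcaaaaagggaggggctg
Trim6: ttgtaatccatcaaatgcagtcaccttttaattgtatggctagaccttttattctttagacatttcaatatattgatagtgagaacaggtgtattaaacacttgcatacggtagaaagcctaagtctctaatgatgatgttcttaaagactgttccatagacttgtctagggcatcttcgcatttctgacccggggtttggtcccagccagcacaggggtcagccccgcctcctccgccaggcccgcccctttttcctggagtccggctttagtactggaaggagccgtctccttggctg
Trim25: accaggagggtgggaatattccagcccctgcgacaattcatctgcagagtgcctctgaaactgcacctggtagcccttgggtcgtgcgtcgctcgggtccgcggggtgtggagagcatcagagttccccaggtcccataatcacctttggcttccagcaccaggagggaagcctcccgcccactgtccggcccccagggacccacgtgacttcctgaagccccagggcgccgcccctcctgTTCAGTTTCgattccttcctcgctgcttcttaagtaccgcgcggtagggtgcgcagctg

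The capitals in Trim34a and Trim25 spell the same run, TTCAGTTTC, at positions 262 and 242 counted from 1 at the 5′ end of each window. The start follows position 250, so the match in Trim34a lies after it. In Trim30a the run TTCTTTTTC stands at position 216, and the window of Trim6 holds no match. A RefSeq window was at hand for 40 of the 51 members. Those without one were Trim14, Trim8, Trim35, Trim3 and Trim33 of the top quartile of all genes, and Trim65 and Trim11 of the third quartile. Trim55, Trim29, Trim36 and Trim50, under the median gene, also lacked one. Of the 40 genes, 6 (15.0%) had a match in at least one of their windows, against 9.76% of 27025 genes in all. Of the 27025 genes, 12518 were measured here under the same symbol. Besides Trim30a, Trim25 and Trim34a, the 6 members with a match were Trim26, Trim7 and Trim2. Their intensities were 817 for Trim30, 204 for Trim25, 63.1 for Trim34, 38.8 for Trim26, 5.79 for Trim7 and 4.69 for Trim2. The 6 genes thus covered both ends of the family. Trim7 and Trim2, at the low end, have several windows, and not every window of either held a match. A gene with more windows has more chances of a match, which was not allowed for. A match is a description of letters only.

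Other motifs were searched on both strands of the same windows, and matches may overlap those of GAAANNGAA. In the shares that follow, all genes are the same 27025 genes with a window. GAGGAAGT, one form of the sites for the myeloid factor PU.1, was found in 2 of 40 members (5.00%), Trim24 and Trim2, against 3.69% of all genes. TTCNNNGAA, the letters of STAT sites, was found in 5 members (12.5%) against 9.55% of all genes. These 5 members were Trim45, Trim46, Trim15, Trim31 and Trim38, and their highest intensity was 10.7. TCACGTGA, an E-box of the kind bound by Mitf and its relatives, was found in 0 of 40 members and in 1.12% of all genes.

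The intensities of the TRIM genes ran from 2.53 to 817, and those of the other genes from 1.43 to 10802. Of the 51 members 25 (49.0%) were above the median of all genes, against 9463 of the 18925 other genes. The median intensity was 14.0 over the members and 15.8 over the other genes. In the top quartile of all genes stood 10 members (19.6%), and in the bottom quartile 11 (21.6%), against 4734 and 4733 of the other genes. The middle range of the members, between their own quartiles, was 7.20 to 66.8, and that of the other genes 6.19 to 73.5. Rows with no gene symbol, 5061 in number, had a median intensity of 6.04.

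**Figure D1:**
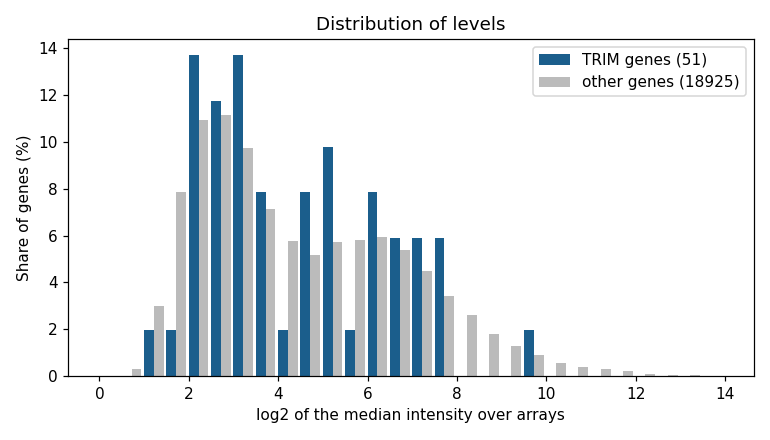
Share of genes in percent (y axis, bars side by side) by log2 of the median intensity over arrays (x axis, bins of equal width), for the 51 TRIM genes in blue and the 18925 other genes in grey. The medians on the linear scale are 14.0 and 15.8. From a log2 intensity of 8 upwards there is 1 TRIM gene, Trim30, whereas other genes reach the bin from 13 to 13.5.

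Intensities depend on how well each probe set binds as well as on the amount of RNA, so small differences between genes carry little weight. A measure of this was taken from the 1185 genes with several rows, in which the brightest row exceeded the dimmest by a median ratio of 2.10 (quartiles 1.30 and 4.55). Among the TRIM genes Trim71 alone had 2 rows with a single symbol, at 11.6 and 7.11. Down the order of the 51 members there were 50 steps from one gene to the next, and 1 of them exceeded that ratio, the 4.00-fold step from Trim30 to Trim25. This 4.00-fold step was under the upper quartile of 4.55 between rows of one gene. The next largest step was 1.55-fold. Steps in a sorted list of this many genes are small by construction, so the order below Trim30 is given in bands.

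Trim30, the interferon-inducible gene now named Trim30a, was the brightest member at 817, higher than 97.8% of all genes. This was close to the microglia markers Cx3cr1 and Itgam, at 819 and 788, below Trem2 and Csf1r and above Tmem119, Aif1 and P2ry12. The other 9 members of the top quartile were within a narrow band, between 108 and 204.

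Trim25 had an intensity of 204 and Trim14, an adaptor at mitochondria in the RIG-I pathway that lacks a RING, of 189. Trim8, a regulator of cytokine signalling, was at 183 in the row that names it alone. A row that it shares with Gm9798 was at 6.89. Trim28, also named KAP1, which silences chromatin together with KRAB zinc finger proteins, was at 169.7. Trim35 had 159 and Trim3, an NHL-repeat protein known from neurons, 134. Trim13, a ligase of the endoplasmic reticulum, Trim41 and Trim33 closed the band at 109, 108 and 108.

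Below them 15 members lay between 17.5 and 73.0, in the third quartile of all genes. Trim56, which acts in antiviral signalling, was at 73.0 and Trim65, a ligase for the RNA sensor MDA5, at 69.1. Trim44, Trim27 and Trim34 followed at 68.6, 65.0 and 63.1. Trim47, Trim24, Trim37, Trim26 and Trim62 lay between 36.0 and 44.8. Trim24 is the TIF1-alpha co-regulator of nuclear receptors, and Trim37 is a ligase at peroxisomes and centrosomes. Trim11, Trim23, Trim32, Trim68 and Trim39 lay between 17.5 and 31.5.

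The 26 members under the median gene began with Trim54 at 14.0 and Trim59 at 12.9. The second quartile held 15 of them, down to Trim6 at 6.72 and Trim10, a gene of erythroid cells, at 6.54. The bottom quartile held Trim7, Trim15, Trim50, Trim31, Trim40, Trim42, Trim2, Trim38, Trim69, Trim75 and Trim52. Their highest intensity was 5.79, which is under the 6.04 of the median row with no symbol. Trim2, a ligase for a neurofilament protein in neurons, was at 4.69. Trim38, which in mouse macrophages limits signalling from Toll-like receptors, was at 4.67, and Trim52 was the dimmest at 2.53. A low intensity of one probe set does not show that a gene was silent.

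**Figure D2:**
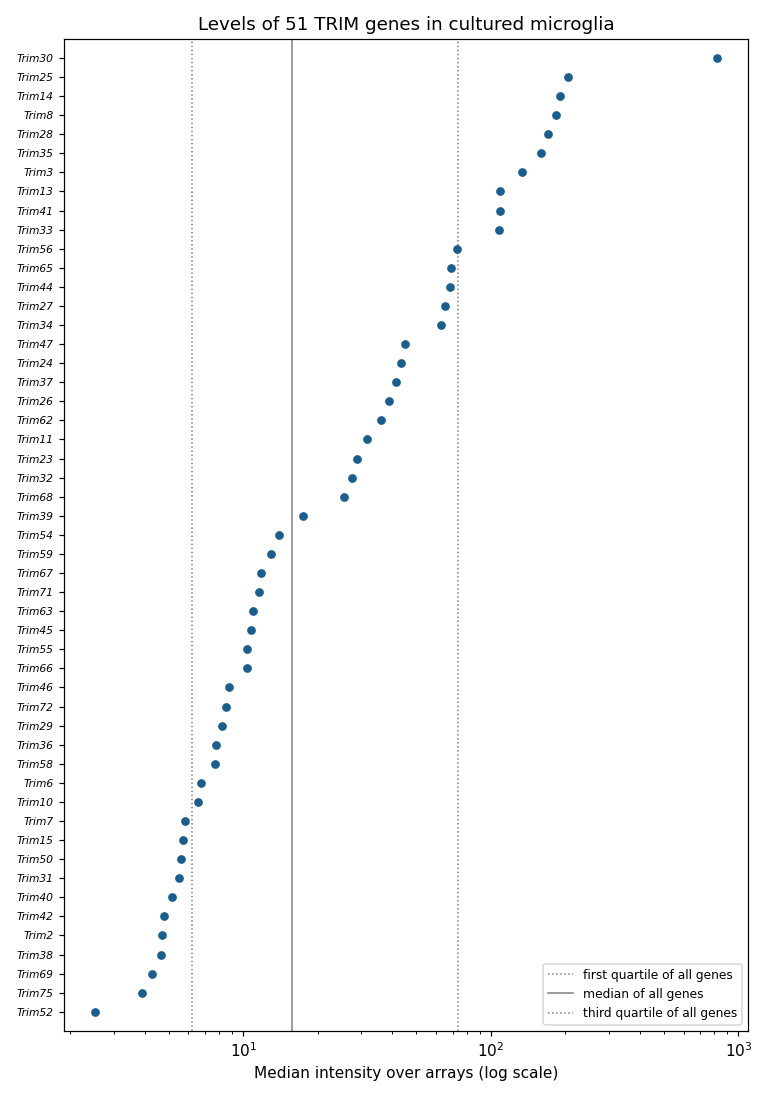
Median intensity over arrays (x axis, log scale) of each of the 51 TRIM genes (y axis), ordered by level, with 1 point per gene and no error bar because the value is the authors' own median. Vertical lines mark the median (solid) and the quartiles (dotted) of all 18976 genes. Trim30 at 817 is followed by a band of 9 genes between 108 and 204, and 26 genes lie left of the solid line.

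Grouped by what the proteins are known to do, the levels spread widely within most groups. Of 18 names listed as linked to interferon, some of which are older and newer names of one gene, 10 had a single-symbol row, and 3 of the 10 stood under an older name that the membership rule leaves out. Their median was 68.0, with 7 of 10 above the median gene and a range of 4.67 to 817. The 3 with an older name were Trim30d (AI451617) at 116, Trim12c (9230105E10Rik) at 13.4 and Trim30b (A530023O14Rik) at 8.13. All 14 measured genes of the RIG-I pathway around Trim25 were above the median gene, with a median of 131. Ddx58, which encodes RIG-I itself, was the brightest at 304, Mavs, its adaptor, was at 147, and Isg15, the ubiquitin-like modifier, was the dimmest at 19.6.

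Of the TIF1 co-regulators, Trim28, Trim33 and Trim24 had intensities of 169.7, 108 and 43.2, and Trim66, known from testis, of 10.3. The measured Smad partners of Trim33 were Smad4 at 273 and Smad2 at 88.8. Among the NHL-repeat members Trim3 was at 134 and Trim32, a gene of muscular dystrophy, at 27.5. Trim71, a stem cell regulator of mRNA, was at 11.6 and Trim2 at 4.69. The muscle RING genes Trim54, Trim63 and Trim55 lay close together, at 14.0, 10.9 and 10.4, all 3 under the median gene. The COS box, which binds microtubules, is also found in the muscle RING proteins. The 4 measured genes of the separate COS-box list were under the median gene as well. They were Trim67 at 11.7, Trim46 at 8.76, Trim36 at 7.79 and Trim42 at 4.77.

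Of the measured members without a RING, Trim14 was at 189, Trim44 at 68.6 and Trim29, an epithelial gene, at 8.17. Of 6 measured members linked to autophagy and endomembranes 3 were above the median gene, Trim13, Trim37 and Trim23, at 109, 41.4 and 28.9. Trim59, the other member listed with Trim13 as bound to membranes, was at 12.9. Some TRIM proteins go by other names, and 5 of the 6 listed were measured. Pml, the organiser of nuclear bodies, was at 142 and Rnf207 at 16.0. Bspry, Mefv, which encodes pyrin, and Mid2 were at 8.06, 7.80 and 4.10.

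**Figure D3:**
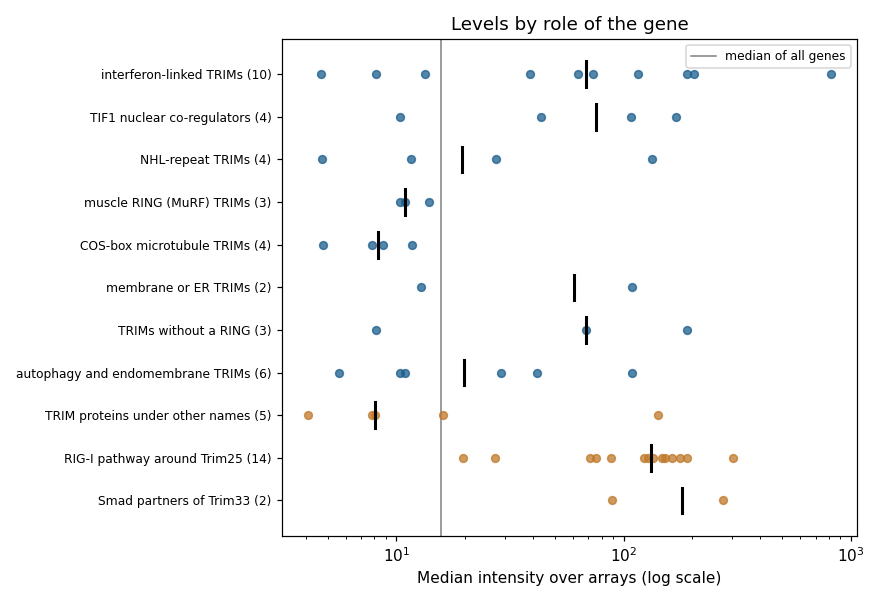
Median intensity over arrays (x axis, log scale) of the genes in each role list (y axis, number of measured genes in parentheses), with 1 point per gene and a black bar at the median of the list. Lists of Trim genes are blue, and the grey line is the median of all genes. TRIM proteins under other names and the lists of related genes are orange. The 3 muscle RING genes and the 4 genes of the COS-box list lie left of the grey line, and all 14 RIG-I pathway genes lie right of it.

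Many TRIM genes stand next to each other in the genome. Of 9 pairs of neighbours (at most 1 protein-coding gene between them) with a value for both genes, 4 differed by more than the 2.10-fold ratio usual between probe sets of one gene and 5 by less. The same count over neighbours among all genes was not made. Among the 5, the pairs within Trim15, Trim10, Trim40 and Trim31 lay at 5.13 to 6.54, near the 6.04 of the median row with no symbol. The order of genes was read from RefSeq (GRCm38.p6), and no coordinates of the arrays were used. The longest run held 10 TRIM genes from Trim6 to Trim30d, 6 of them with a value, of which 3 stood under an older name. Trim6 was at 6.72, close to the median row with no symbol, and its direct neighbour Trim34a at 63.1. Further along, Trim12c and Trim30b were at 13.4 and 8.13, Trim30a at 817 and Trim30d at 116. Joined rows that name Trim12c as 9230105E10Rik together with other genes were brighter, at 71.4 and 47.0. The Trim30 genes are close relatives of one another, as are the Trim12 genes and the Trim34 genes, so probes can bind RNA of a neighbour and the single values are uncertain.

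A second run, of Trim26, Trim15, Trim10, Trim40 and Trim31, lies in the major histocompatibility complex. Trim26 was at 38.8 and the other 4 were between 5.13 and 6.54. Trim41 and Trim7 are direct neighbours as well, at 108 and 5.79, and the value of Trim7 is under the median row with no symbol. Trim47 and Trim65, by contrast, were at 44.8 and 69.1, a 1.54-fold difference that is smaller than the usual ratio between probe sets of one gene.

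**Figure D4:**
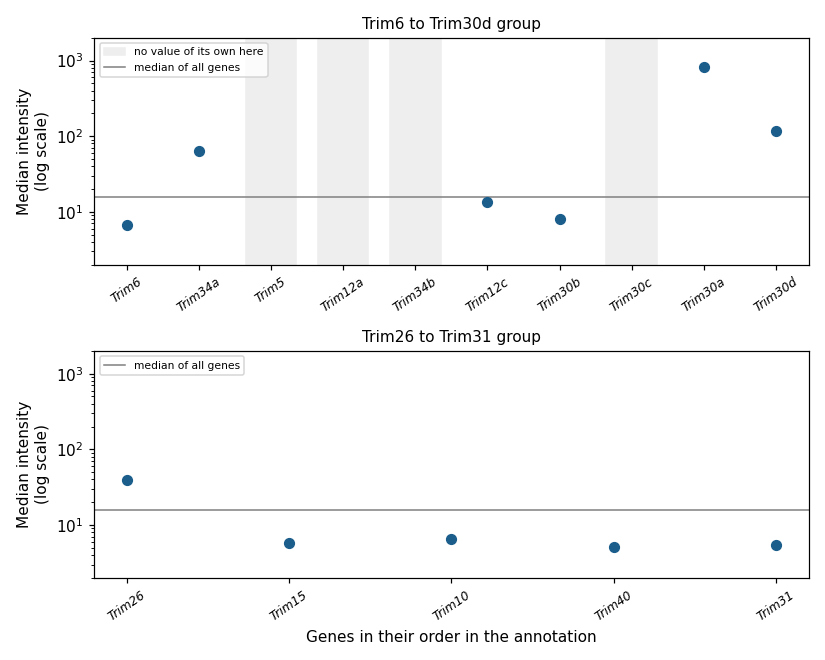
Median intensity over arrays (y axis, log scale) of the TRIM genes in the runs Trim6 to Trim30d (top) and Trim26 to Trim31 (bottom), in the order of the annotation (x axis), with 1 point per gene. Grey bars mark genes with no value of their own here, and the grey line is the median of all genes. Trim30a at 817 and Trim30d at 116 lie above Trim12c and Trim30b, and Trim26 at 38.8 lies above its 4 neighbours.

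The table assigns each of the 6 joined rows to more than one gene. The row shared by Trim12, Trim5 and 9230105E10Rik (probe set 10566333) had an intensity of 71.4, and that of Gm4992, Trim5 and 9230105E10Rik 47.0. Fbxw10 and Trim16 shared a row at 37.1. Trim8 and Gm9798 shared one at 6.89, far below the 183 of the row that named Trim8 alone. The shared row of Trim43a, Trim43b and Trim43c was at 5.41 and that of Trim61 and Trim60 at 4.49. Besides the genes already given under an older name, Trim80 had a row as 4933422H20Rik at 6.86. Of 68 genes in RefSeq whose symbol fits the rule, 51 had a row of their own, 4 a row under an older name and 8 a joined row only, and the other 5 were not analysed here.

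The gene annotation in the table describes the family independently of the intensities. Metal ion binding was listed for 50 of 51 members and zinc ion binding for 44, against 12.9% and 6.50% of all genes. Ligase activity was listed for 9 members (17.6%), against 1.39% of all genes, from Trim25 at 204 to Trim31 at 5.48. The 17 members annotated to the nucleus (33.3%, against 19.4% of all genes) had a median intensity of 31.5 and the others of 11.0. Regulation of transcription was listed for 5 members (9.80%), against 7.56% of all genes. They were Trim30, Trim28, Trim33, Trim27 and Trim24, all above the median gene, with a median of 108 against 11.6 for the other members. A higher median was not particular to these terms. It was also seen with zinc ion binding (21.5 against 7.69), protein binding (17.5 against 6.70), cytoplasm (17.5 against 11.6) and ligase activity (25.5 against 13.4). The reverse was seen with the general terms biological_process (10.7 against 30.2), molecular_function (11.6 against 27.5) and cellular_component (11.6 against 28.2). For metal ion binding no such comparison of groups can be made. Only Trim41, at 108, lacked the term, and the 50 members with it had a median of 13.4.

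The table also lists, from UniGene, the tissues in which transcripts of a gene were seen. For the 50 members with an entry the median was 20 tissues (range 2 to 46), against 22 over 16913 genes. Brain was among them for 33 of the 50 members (66.0%), against 75.8% of the 16913 genes. Members listed in more tissues tended to be brighter, with a Spearman correlation of 0.67 across the 50 genes, and 0.74 across all 16913 genes. This is a description across genes, which share the same arrays and are not independent replicates. Trim2 and Trim59 went against this order, with 33 and 38 tissues listed and intensities of 4.69 and 12.9.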

How the data were processed

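Total RNA was labelled with biotin and hybridised to Affymetrix whole transcript arrays. RMA, a method that subtracts background, normalises between arrays and sums up probes, is named in the processing notes of the submitters. Its version, the array model for these cultures and the genome build are not given in the sources used here. The deposited table holds 28361 probe set rows. The value used is the authors' deposited median expression, a linear intensity, and over which arrays the median was taken is not stated. The 10 columns of values per array carry names that match no sample label and were not used. The 5 columns of the authors' own paired comparison (effects, p-value and FDR) hold their findings and were not used either. The planned limma fit of TGFb1 against control could therefore not be made, and no test was run. No SD or depth applies, and the number of arrays limits the precision.

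Rows with 1 symbol (21041) gave 18976 genes, the brightest row per symbol being kept. Each gene was ranked among these. Sequences, names and gene order came from RefSeq tables of GRCm38.p6, in which 49 members were matched by symbol and 2 by an older symbol. Members and lists were chosen with earlier results of these data known. Every member was counted. Without a test, the rule for named genes reduced to the 6 brightest members, Trim24, Trim25, Trim28, Trim33 and the joined rows. Other genes were named to complete their groups, and the 4 motifs chosen, after values were seen. Trim21 was not analysed here. A further microglia marker is not reported here. The code was tested on simulated data. Alternatives were another choice of row, a filter on low values and another background. Python 3.11.15, numpy 2.4.6, pandas 2.3.3, scipy 1.17.1 and matplotlib 3.10.9 were used.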

Additional observations from a re-analysis of the deposited data

How the results depend on the processing

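The counts and the median of the TRIM genes were recomputed under 5 alternatives, 2 of them added after the data were seen (the dimmest row per symbol, and the joined rows and rows under an older name added). Leaving out rows under the median of all rows left 27 of the 51 members. Then 14 of the 27 were above the median of the 10333 genes left, 6 were in their top quartile, and the members' median intensity was 65.0. These values follow from the smaller and brighter set. With the mean of all rows of a symbol, the dimmest row, or every row of the table as background, the 51 members stayed. Of these, 25 to 27 were above the median gene and 11 to 15 in the top quartile, most when set against every row. Their median was 14.0. With the joined rows and the rows under an older name the set grew to 61 entries. Of the 61, 29 were above the median gene, 11 were in the top quartile, and the median was 13.4. No paired analysis was possible because no column of a single array could be matched to a replicate number. For the same reason the fits with other normalisations, variance priors and thresholds and without single replicates were not run. The values have no replicate error here, and the usual 2.10-fold ratio between probe sets of one gene limits what the order of levels can show.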
